A study of Mus musculus with 3 samples.

Results

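The genes described here encode tRNA and RNA modification enzymes of the Trmt, Mettl, Nsun, Pus and Alkbh families. They were taken from the array's annotation by symbol, as genes whose name is one of these family names followed by a digit and that have a probe set assigned to that gene alone. The rule found 63 genes with 123 such probe sets, of 18193 genes named on the array, and the brightest probe set stood for its gene. The rule uses no measured value, although the families were picked with earlier results of these data known. The symbol rule also took a long noncoding RNA (Alkbh3os1), a pseudogene (Mettl4-ps1) and Mettl proteins whose substrate is protein rather than RNA. These are described apart below, but those that passed the filter stay in the counts.

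RNA was measured on 3 Affymetrix mouse arrays of memory phenotype CD4 T cells, helper T cells with a memory surface phenotype, sorted from spleen with a stated purity above 99%. The cells came from BALB/c mice given a high fat diet with 60 kcal% fat for 10 weeks (HFD, 2 arrays) or from BALB/c mice given a normal diet over the same period (ND, 1 array). Age, sex and the number of mice behind each array are not given in the sources used. Nothing states that the HFD arrays came from separate mice, so the p-values cover the spread between these arrays, which may be technical.

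Transfer RNAs and ribosomal RNAs are modified after transcription at many positions. Methyltransferases of the Trmt family and several Mettl and Nsun proteins add methyl groups, Pus enzymes turn uridine into pseudouridine, and Alkbh proteins remove or oxidise methyl groups. Such marks stabilise the tRNA fold and tune decoding, and Mettl3 with Mettl14 places N6-methyladenosine (m6A) on messenger RNA, a mark known to influence T cell homeostasis in mice. Activated lymphocytes are known to enlarge their capacity for protein synthesis.

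Values are linear intensities as deposited, each array scaled to a common trimmed mean of 500.0. Differences below are HFD minus ND on the scale log2(intensity + 17.65), with the standard error (SE) of the limma fit, and a gene was called at a Benjamini-Hochberg adjusted p under 0.05 over the 10341 genes whose mean over the arrays was above 71.4. Fold changes are on the same scale and understate the change of dim genes. Only the HFD arrays gave an estimate of spread, and the single ND array was taken to vary as they do. Over all genes the median difference was -0.15, and with 1 ND array the diet and that array's own handling cannot be told apart. The T cell genes Cd3d, Cd3e, Cd3g, Cd4, Cd5 and Cd44 summed to 55138 and 53570 in HFD, against 67024 in ND. Among them Cd4 (609 and 377 in HFD, 911 in ND) was called lower, 1.87-fold. Cd44 (5623 and 5700 in HFD, 9761 in ND) was called lower, 1.72-fold. Cd3d, Cd3e and Cd3g were also called lower, and Cd5 was not called. Sums of marker lists of other cells also moved between the arrays: 9 B cell genes summed to 3135 and 3349 in HFD against 1414 in ND, 10 macrophage and monocyte genes to 2029 and 2683 against 6000, 6 dendritic cell genes to 783 and 885 against 1915, 6 neutrophil genes to 589.5 and 670.4 against 170.1, 4 CD8 T and NK cell genes to 1119 and 1356 against 862, and 3 erythroid genes to 46.4 and 33.4 against 69.0. None of these markers is listed at 0, and the B cell list moved through Ms4a1 and Fcer2a, the only called risers of its 9 genes. The 3 erythroid genes all lay below the filter and were not tested, with Hba-a1 higher in HFD and Alas2 and Klf1 lower. H2-Ea, a class II gene that BALB/c mice are known to express, read 536 and 602 in HFD and 11.5 in ND. The part of these markers, or of a strain difference between the samples, in the results below was not tested.

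Of the 63 genes, 54 passed the filter on low values, and each of these 54 also lay above 71.4 on the ND array alone, so none passed through HFD only. The 54 are called enzyme genes here, and 5 protein methyltransferases, 5 other Mettl genes and 5 other Alkbh genes are counted among them. In HFD 23 of the 54 rose (42.6%), 6 fell (11.1%) and 25 were not called. Among all genes tested 20.5% rose and 29.2% fell, 49.6% in either direction. The median enzyme gene lay at 0.28, which is 0.43 above the median of all genes. At least 1.5-fold increases in both HFD arrays were found for 16 enzyme genes (29.6%, against 12.7% of all genes), and decreases of that size for 2 (3.7%, against 14.9% of all genes). Both HFD arrays lay above ND for 36 of the 54 (35.8% of all genes did so) and below ND for 16 (54.7% of all genes). The HFD arrays differed from each other by a median of 0.09 over the enzyme genes, against 0.44 and 0.41 for the median absolute differences of HFD 1 and HFD 2 from ND. Over all genes these medians were 0.13, 0.39 and 0.45, so the distance of ND from the HFD arrays was common to the arrays as a whole. By family, all 5 tested Pus genes rose, as did 9 of 15 Trmt, 5 of 21 Mettl, 2 of 5 Nsun and 2 of 8 Alkbh genes, while 2 Trmt, 3 Mettl and 1 Alkbh gene fell.

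**Figure D1:**
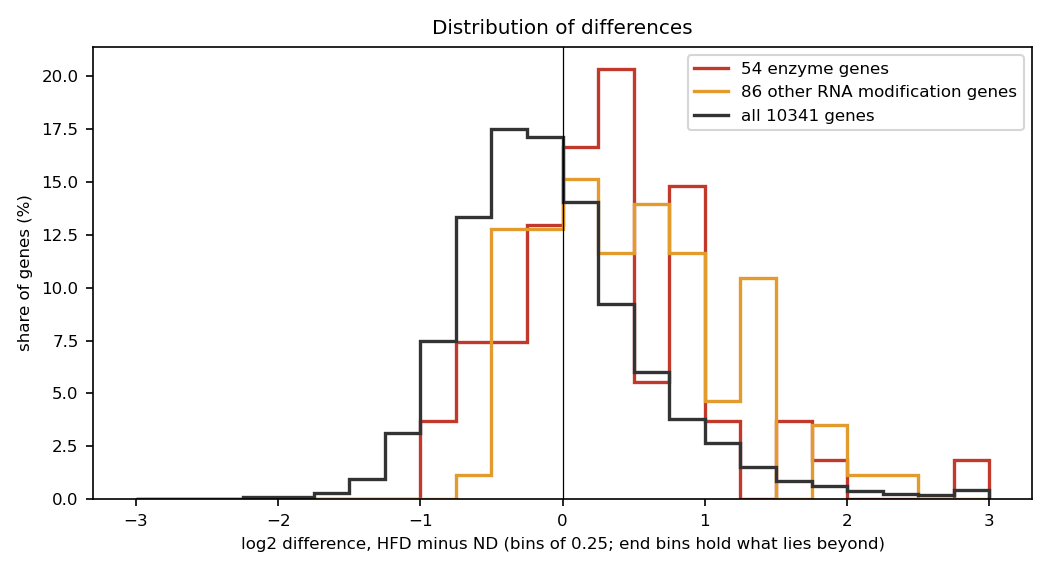
Share of genes (%) by log2 difference, HFD minus ND, in bins of 0.25, for the 54 enzyme genes tested, 86 other RNA modification genes and all 10341 genes. The enzyme genes have their median at 0.28 and all genes at -0.15.

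**Figure D2:**
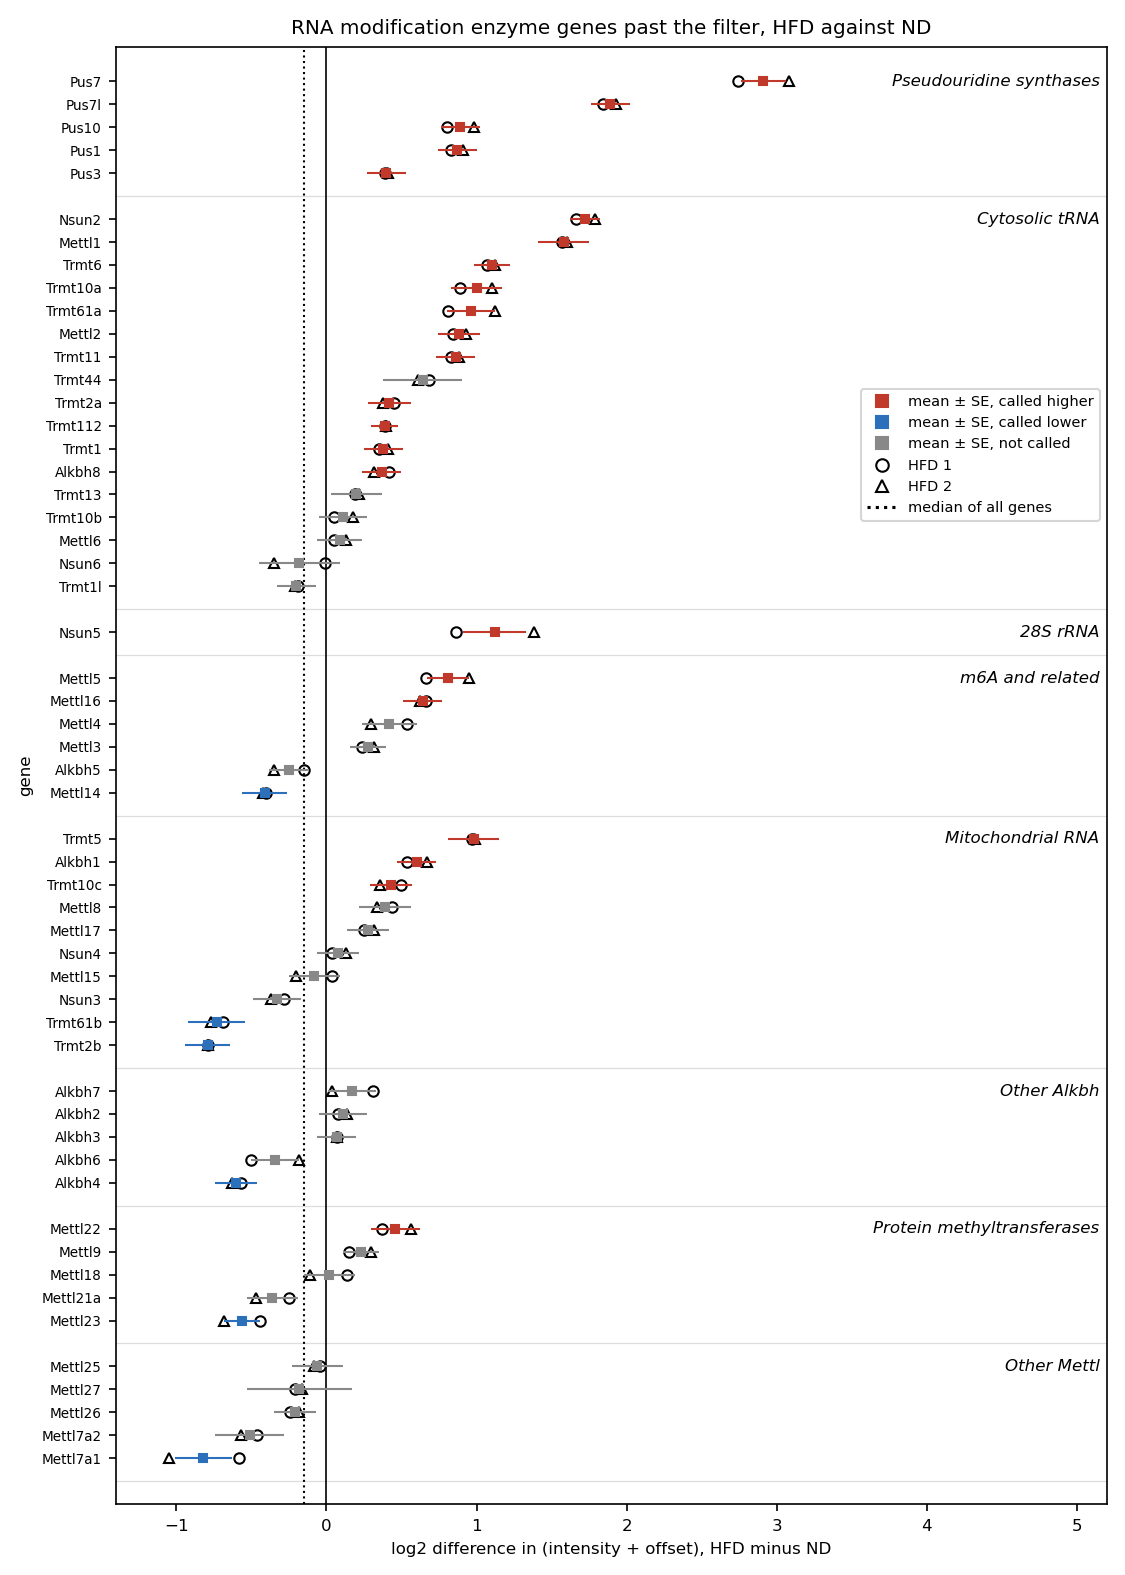
Log2 difference from ND of each tested enzyme gene, by role, with HFD 1 as circles, HFD 2 as triangles and the fitted mean ± SE as squares coloured by call. The dotted line is the median of all genes at -0.15. All 5 pseudouridine synthases of the Pus family lie to the right of 0 and all 5 tested genes of the other Mettl group to its left.

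Among the 54 tested genes, the 5 pseudouridine synthases of the Pus family held the largest differences, those of Pus7 and Pus7l. Pus7, which modifies tRNA and messenger RNA, read 2569 and 3255 in HFD, against 371 in ND (7.49-fold, log2 2.91 ± 0.15 SE, limma adjusted p = 2.1e-08). Pus7l, its paralog, read 2083 and 2216 in HFD, against 568 in ND (3.70-fold, log2 1.89 ± 0.13, adjusted p = 2.1e-07). The HFD arrays of Pus7l lay close together (log2 1.84 and 1.93 above ND), and those of Pus7 lay farther apart (2.74 and 3.08). For both genes each HFD array was far above ND. Pus10, which acts on the tRNA T arm and is also known for a role in microRNA processing, read 1822 and 2070 in HFD and 1042 in ND (1.85-fold, adjusted p = 1.5e-04). Pus1, which serves cytosolic and mitochondrial tRNAs, read 1535 and 1631 in HFD and 859 in ND (1.83-fold, adjusted p = 1.6e-04). Pus3, which modifies the anticodon arm, showed the smallest difference of the 5, at 1238 and 1256 in HFD and 942 in ND (1.32-fold, adjusted p = 0.024). Its brightest probe set, however, gave a log2 difference of 0.40 where its dimmer probe sets gave 1.61 and 2.38, the widest gap between probe sets among the 31 enzyme genes with several. Averaged over its probe sets, Pus3 stood at 1.46 (adjusted p = 3.4e-04). The call on the brightest probe set ended without a variance trend (adjusted p = 0.070) or without the filter (0.054).

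Promoters of 4 risers are shown because each holds 1 short motif downstream of its annotated start, and because Pus7 and Mettl1 are among the largest increases. Each is a RefSeq window of 300 bases (250 before to 50 after the annotated start) in build GRCm38.p6, with the E-box CACGTG in capitals. The E-box is a palindrome, so 1 search covers both strands, and it is known as a binding motif of basic helix-loop-helix factors, MYC among them. The windows are chr5:23783662-23783961 on the minus strand for Pus7, chr5:110780547-110780846 on the minus strand for Pus1, chr10:127041682-127041981 on the plus strand for Mettl1 and chr12:111677855-111678154 on the plus strand for Trmt61a.
Pus7: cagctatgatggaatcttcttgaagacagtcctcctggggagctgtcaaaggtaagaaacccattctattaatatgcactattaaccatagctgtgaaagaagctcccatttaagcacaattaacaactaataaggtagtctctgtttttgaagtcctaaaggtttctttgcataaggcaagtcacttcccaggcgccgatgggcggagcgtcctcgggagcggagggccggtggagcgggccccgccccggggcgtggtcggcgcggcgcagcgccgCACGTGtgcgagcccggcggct
Pus1: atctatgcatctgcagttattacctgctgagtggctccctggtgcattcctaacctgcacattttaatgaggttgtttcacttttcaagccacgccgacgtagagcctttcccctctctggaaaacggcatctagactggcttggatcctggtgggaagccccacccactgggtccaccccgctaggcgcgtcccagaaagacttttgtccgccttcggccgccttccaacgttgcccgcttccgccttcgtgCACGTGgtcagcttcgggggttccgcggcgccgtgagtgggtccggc
Mettl1: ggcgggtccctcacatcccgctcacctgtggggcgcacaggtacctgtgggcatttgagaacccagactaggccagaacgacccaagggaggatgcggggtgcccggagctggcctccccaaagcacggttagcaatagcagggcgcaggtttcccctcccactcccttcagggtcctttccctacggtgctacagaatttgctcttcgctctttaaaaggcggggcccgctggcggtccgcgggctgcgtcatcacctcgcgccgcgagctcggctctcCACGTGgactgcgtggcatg
Trmt61a: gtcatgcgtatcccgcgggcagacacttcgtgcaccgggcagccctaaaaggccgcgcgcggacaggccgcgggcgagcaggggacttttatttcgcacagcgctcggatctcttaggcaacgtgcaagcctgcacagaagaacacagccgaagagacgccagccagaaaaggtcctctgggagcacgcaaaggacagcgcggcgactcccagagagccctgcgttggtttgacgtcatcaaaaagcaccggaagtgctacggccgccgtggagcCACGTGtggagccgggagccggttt
Counted from 1 at the 5′ end of the window, the motif began at base 279 in Pus7, 254 in Pus1, 281 in Mettl1 and 276 in Trmt61a, each downstream of the annotated start. Pus7 has 2 windows in the table, of which 1 held the motif, and Pus1 has 2 overlapping windows that both did, while Mettl1 and Trmt61a have 1 each. Of 19 risers with a window in the table, 6 held the motif in at least 1 window (31.6%). The others were Pus3 and Trmt10a, where it lay upstream of the start, at bases 119 and 236. The motif was held by 1 of 24 enzyme genes not called (4.17%), Alkbh7, and by 1 of 5 that fell (20.0%). The latter was Trmt61b, where it began at base 242. Among all tested genes with a window the share was 12.1%, and among all 32851 windows of this length it was 7.15%. Windows of the risers had a median GC content of 62.3%, against 59.3% for those not called and 60.7% for the genes tested. These letters were not found in the windows of Pus7l, Pus10 and Nsun2. The motif was chosen with the expression values known, and a match is a description of the sequence.

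Among enzymes of cytosolic tRNA, 11 of 17 tested genes rose and none fell, with 6 not called, where 20.5% of all genes rose and 29.2% fell. Nsun2, the cytosine methyltransferase of many tRNAs, was the brightest of the larger risers at 8009 and 8770 in HFD, against 2528 in ND (3.30-fold, log2 1.72 ± 0.10, adjusted p = 5.4e-08). Mettl1, the catalytic subunit that places 7-methylguanosine in tRNA, read 618 and 628 in HFD and 196 in ND (3.0-fold, log2 1.58 ± 0.17, adjusted p = 9.1e-06). The HFD values of Mettl1 differed from each other by far less than from ND, and its other probe sets gave 1.64 and 2.56. Trmt6 and Trmt61a form the heterodimer that methylates adenosine in the T loop, Trmt61a being the catalytic subunit, and both subunit genes rose. Trmt6 read 2477 and 2552 in HFD and 1167 in ND (2.14-fold, adjusted p = 1.3e-05). Trmt61a read 775 and 964 in HFD and 436 in ND (1.95-fold, adjusted p = 4.2e-04). Both HFD arrays lay above ND for either subunit, and 90.5% of all genes tested had both on 1 side of ND. The other probe sets of Trmt6 gave smaller differences (0.56 and 0.68, against 1.10).

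Trmt10a, a guanosine methyltransferase linked in humans to early diabetes and microcephaly, read 600.2 and 697 in HFD, against 315 in ND (2.0-fold, adjusted p = 3.5e-04). Mettl2, one of the enzymes placing 3-methylcytidine in the anticodon loop, read 1104 and 1172 in HFD and 608 in ND (1.85-fold, adjusted p = 2.3e-04). Mettl6, which makes the same mark on other tRNAs, read 722 and 767 in HFD and 699 in ND (log2 0.09 ± 0.15, adjusted p = 0.64). Trmt11, a guanosine methyltransferase that works with Trmt112, read 1876 and 1946 in HFD and 1049 in ND (1.81-fold, adjusted p = 1.3e-04). Trmt112, the small activator shared by several methyltransferases, was the brightest enzyme gene of all and read 10134 and 10244 in HFD, against 7755 in ND (1.31-fold, log2 0.39 ± 0.09, adjusted p = 0.0021). Its other probe set, at 201 and 251 in HFD and 224 in ND, gave 0.01, and averaging both gave 0.20 and ended the call (adjusted p = 0.23), as did a variance model without a trend (0.072). Other partners of Trmt112 rose as well, namely Alkbh8, Mettl5 and the rRNA methyltransferase Bud23. All 5 genes listed for this unit were thus called higher, at log2 0.37 to 0.86, where 20.5% of all genes rose. The list was drawn up after values were seen and is not complete. It left out Thumpd3 and Thumpd2, which were not called (log2 0.13 and -0.06, adjusted p = 0.38 and 0.83).

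Smaller increases were called for Trmt2a, which makes 5-methyluridine (1119 and 1060 in HFD, 812 in ND, 1.33-fold, adjusted p = 0.023), for Trmt1, a guanosine dimethyltransferase (1479 and 1538 in HFD, 1156 in ND, 1.30-fold, adjusted p = 0.027), and for Alkbh8, which completes wobble uridine modification (1368 and 1269 in HFD, 1016 in ND, 1.29-fold, adjusted p = 0.036). These calls ended without a variance trend (adjusted p = 0.067, 0.080 and 0.093, in the order given) and without the filter (0.060, 0.056 and 0.077), and those of Trmt2a and Alkbh8 also with probe sets averaged (0.11 and 0.099). The brightest of the genes not called, Trmt1l, a paralog of Trmt1, read 1204 and 1184 in HFD and 1374 in ND (log2 -0.20 ± 0.13, adjusted p = 0.22). Trmt44, which methylates the ribose of uridine in serine tRNAs, read 181 and 171 in HFD and 106 in ND (log2 0.64 ± 0.26, adjusted p = 0.056). Quantile normalization, centred arrays, averaged probe sets and a model without a trend each gave a call (0.026, 0.030, 0.045 and 0.027). As Trmt44 has 1 probe set, averaging left its own values unchanged and altered only the fit over the other genes. Trmt13, Trmt10b and Nsun6 were not called either, at 0.20, 0.11 and -0.18.

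**Figure D3:**
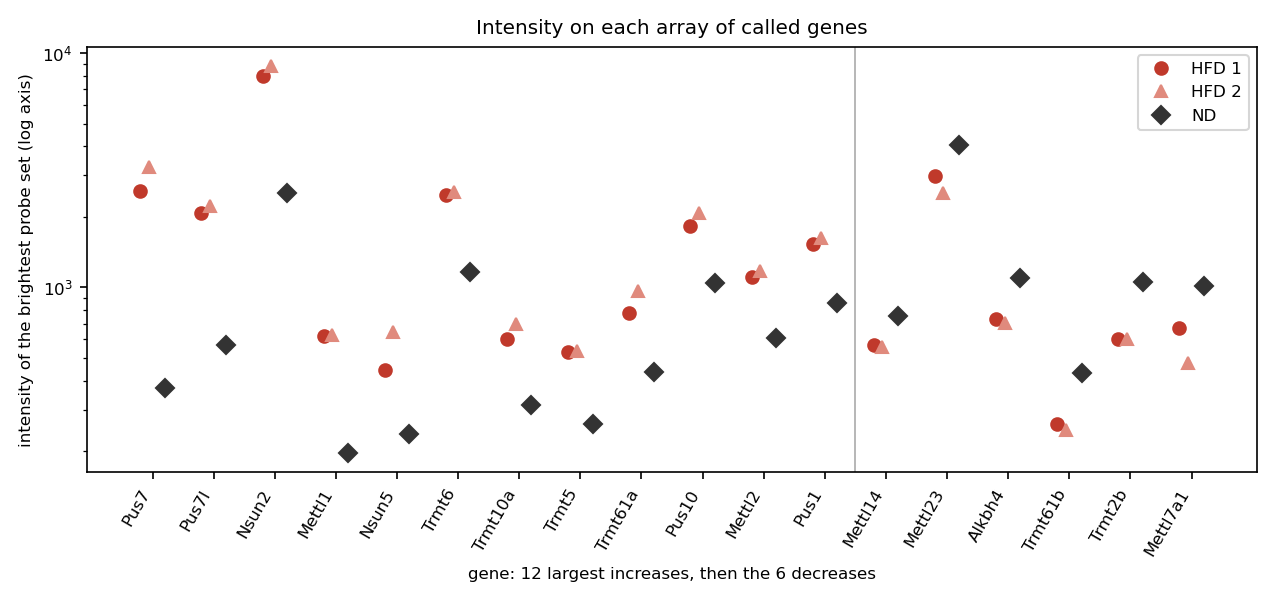
Intensity (log axis) of the 12 called enzyme genes with the largest increases and the 6 called lower, with HFD 1 as circles, HFD 2 as triangles and ND as diamonds. Pus7 reads 2569 and 3255 in HFD against 371 in ND, and for every gene shown both HFD arrays lie on 1 side of ND, as they do for 90.5% of all genes tested.

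Among enzymes of ribosomal RNA and of m6A, Nsun5, Mettl5 and Mettl16 were called higher and Mettl14 lower. Nsun5, the cytosine methyltransferase of large-subunit rRNA, read 445 and 645 in HFD, against 237 in ND (2.17-fold, log2 1.12 ± 0.21, adjusted p = 8.2e-04). Its HFD arrays were the farthest apart among the 54 genes, its other probe set gave 0.09, and both probe sets averaged gave 0.61 (adjusted p = 0.040). Mettl5, the m6A methyltransferase of small-subunit rRNA, read 2045 and 2511 in HFD and 1289 in ND (1.75-fold, adjusted p = 4.7e-04). Mettl16, which methylates U6 small nuclear RNA and the transcript of the methionine adenosyltransferase gene Mat2a, read 1744 and 1693 in HFD and 1097 in ND (1.56-fold, adjusted p = 0.0012).

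The messenger RNA writer pair held no called riser. Mettl3, the catalytic subunit, read 2275 and 2397 in HFD and 1922 in ND (1.21-fold, log2 0.28 ± 0.12, adjusted p = 0.067), while with arrays centred it was called higher (log2 0.35, adjusted p = 0.023). Mettl14, the subunit that binds RNA, read 566 and 557 in HFD, against 752 in ND, and fell 1.33-fold (log2 -0.41 ± 0.15, adjusted p = 0.038). The Mettl14 call ended with arrays centred (log2 -0.34, adjusted p = 0.074), under quantile normalization (adjusted p = 0.12), when dim genes were kept (0.094) and with no variance trend (0.066). The m6A demethylase Alkbh5 read 1846 and 1599 in HFD and 2043 in ND (log2 -0.25 ± 0.13, adjusted p = 0.13), and Mettl4, which acts on U2 small nuclear RNA, read 512 and 429.8 in HFD and 345 in ND (log2 0.42 ± 0.18, adjusted p = 0.064).

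Of 10 genes for mitochondrial RNA, 3 were called higher, 2 lower and 5 not called, shares near those of all genes (20.5% higher and 29.2% lower). Trmt5, which methylates guanosine beside the anticodon in cytosolic and mitochondrial tRNAs, read 527 and 536 in HFD, against 261 in ND (1.97-fold, log2 0.98 ± 0.17, adjusted p = 4.2e-04). Alkbh1, a tRNA dioxygenase that also acts on mitochondrial methionine tRNA, read 1873 and 2049 in HFD and 1282 in ND (1.52-fold, adjusted p = 0.0017). Trmt10c, a subunit of mitochondrial RNase P, read 1188 and 1077 in HFD and 833 in ND (1.35-fold, adjusted p = 0.021), a call lost when dim genes were kept (0.063) or no variance trend was fitted (0.071). In the opposite direction, Trmt2b, the mitochondrial 5-methyluridine enzyme, read 599 and 602 in HFD, against 1050 in ND, and fell 1.73-fold (log2 -0.79 ± 0.15, adjusted p = 6.9e-04). Trmt61b, which methylates adenosine in mitochondrial tRNA, read 260.4 and 246 in HFD, against 430.5 in ND, and fell 1.66-fold (adjusted p = 0.0067; 0.059 without the filter). The mitochondrial enzymes Trmt2b and Trmt61b were thus lower where the enzymes of the same kind for cytosolic tRNA, Trmt2a and Trmt61a, were higher. The Trmt2a call, however, ended under several alternatives, as given above. Other pairs had the same sign, with Trmt10c at 0.43 and Trmt10a at 1.0, both called higher. Mettl8 stood at 0.39, not called, and Mettl2 at 0.88. The differences between these genes were not tested. Mettl17, a mitochondrial ribosome assembly factor, read 1023 and 1072 in HFD and 856 in ND (adjusted p = 0.10). Mettl8, Nsun4, Mettl15 and Nsun3 were not called, at 0.39, 0.08, -0.08 and -0.33, and Mettl15 had HFD arrays on both sides of ND (557 and 469.9, against 543).

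The remaining Alkbh genes held no riser. Alkbh4, a dioxygenase known for demethylating actin, read 732 and 705 in HFD, against 1097 in ND, and fell 1.52-fold (adjusted p = 0.0037), with its other probe sets at -0.51 and -0.57 against -0.60. Alkbh3, which repairs alkylated nucleic acids, read 1583 and 1579 in HFD and 1507 in ND (log2 0.07 ± 0.13, adjusted p = 0.67). Alkbh2, a DNA repair enzyme, Alkbh7, a mitochondrial protein, and Alkbh6 were at 0.11, 0.17 and -0.34, none of them called.

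Among 5 tested Mettl genes for protein methyltransferases, Mettl23, an arginine methyltransferase, read 2997 and 2533 in HFD, against 4060 in ND, and fell 1.47-fold (adjusted p = 0.0024; 0.056 without a variance trend). Mettl22, a lysine methyltransferase, read 548 and 625 in HFD and 419.8 in ND (1.38-fold, adjusted p = 0.032). That call ended when its probe sets were averaged (adjusted p = 0.42), since 1 of its dimmer probe sets read lower in HFD (88.9 and 128, against 149 in ND), and also without the filter (0.11) or a variance trend (0.070). Mettl9, a histidine methyltransferase, read 2817 and 3126 in HFD and 2534 in ND (adjusted p = 0.13), and Mettl18 and Mettl21a were not called, at 0.02 and -0.36. Mettl7a1, a protein of lipid droplets and the endoplasmic reticulum, had the largest decrease of the 54 genes, at 670.4 and 477 in HFD and 1010 in ND (1.76-fold lower, log2 -0.82 ± 0.19, adjusted p = 0.0030). Its HFD arrays differed clearly from each other, and the call was lost with no variance trend (0.055) or with dim genes kept (0.059). Its neighbour in the family, Mettl7a2, read 183 and 169 in HFD and 259 in ND (adjusted p = 0.078), and probe sets annotated to both paralogs were not used. Mettl26, Mettl25 and Mettl27 were not called, at -0.21, -0.06 and -0.18.

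The 9 genes below the filter had means of 3.43 to 58.5 over the arrays, too dim to be told from background here, and were not tested. They were Trmt12, Trmt9b, Mettl7b, Mettl11b, Mettl21e, Mettl24, Nsun7, Alkbh3os1 and Mettl4-ps1. Trmt12, an enzyme of wybutosine synthesis, read 29.6 and 30.4 in HFD and 6.72 in ND. Nsun7, just under the threshold, read 49.1 and 71.9 in HFD and 54.4 in ND, and Mettl27, just above it, read 78.5 and 82.1 in HFD and 93.6 in ND.

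The other genes of the pathway, taken from a list of RNA modification genes outside the 5 families, also held more genes that rose than fell. Of 88 genes on the array, 86 were tested, and 39 rose (45.3%, against 20.5% of all genes), 7 fell (8.14%, against 29.2%) and 40 were not called, with a median of 0.35. The largest increase was that of Nhp2, a core protein of the H/ACA particles that guide pseudouridylation of rRNA, at 12041 and 13292 in HFD and 2421 in ND (5.2-fold, adjusted p = 3.1e-09). Thg1l, which adds guanosine to the 5′ end of histidine tRNA, followed at 657 and 731 in HFD and 138 in ND (4.57-fold, log2 2.19, adjusted p = 7.0e-07). With probe sets averaged Thg1l stood at 1.19 (adjusted p = 0.0015). The pseudouridine synthase of the H/ACA particle, Dkc1, read 9640 and 10114 in HFD and 2787 in ND (3.53-fold, adjusted p = 2.0e-08). Its partners Gar1 and Nop10 rose 3.43-fold and 1.65-fold, so all 4 core genes were called higher, as were the 5 stand-alone Pus genes. Of 6 other pseudouridine synthase genes on this list, 4 rose. The others, Rpusd1 and Rpusd4, were not called (log2 -0.14 and -0.22, adjusted p = 0.62 and 0.21). Fbl, the methyltransferase of C/D particles, rose 3.52-fold (adjusted p = 1.9e-08), and 7 of 9 genes for rRNA modification on this list rose, Nop2 (2.70-fold) and the acetyltransferase Nat10 (2.53-fold) among them.

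Partner subunits of the enzymes above were set beside them. Wdr4, the partner of Mettl1, read 715 and 746 in HFD and 252 in ND (log2 1.47 ± 0.16, against 1.58 ± 0.17 for Mettl1). With probe sets averaged these differences were 0.82 for Wdr4 (adjusted p = 0.017) and 1.93 for Mettl1 (adjusted p = 1.7e-04). Both subunits of the queuosine enzyme rose, Qtrt1 2.08-fold and Qtrt2 2.68-fold. Of 10 genes listed for wobble uridine modification, Alkbh8 among them, 7 rose, where 20.5% of all genes did. Elp5 (2.39-fold) and Ctu2 (2.03-fold) led them. Elp3, Ctu1 and Urm1 were not called (adjusted p = 0.052, 0.17 and 0.16). This list left out Mto1, Gtpbp3 and Trmu, which were not called (log2 0.26, 0.23 and 0.06). Of 8 genes of the m6A writer complex 1 was called higher and 2 lower, which is not far from the shares of all genes (20.5% and 29.2%). Its scaffold gene Virma read 2134 and 2171 in HFD and 2767 in ND (log2 -0.36 ± 0.12, adjusted p = 0.020; 0.054 with arrays centred and 0.087 without a variance trend). Wtap, the regulatory subunit, read 3321 and 3244 in HFD and 3542 in ND (adjusted p = 0.42), and Rbm15b rose 1.54-fold, a call that ended when its probe sets were averaged (adjusted p = 0.16) or without the filter (adjusted p = 0.053). Of 7 tested readers and erasers of m6A, 1 rose and 2 fell, again near the shares of all genes. The riser was Igf2bp3, an m6A reader, at 186 and 188 in HFD and 67.4 in ND (log2 1.27 ± 0.27, adjusted p = 0.0020), whose mean passed the filter although its ND value did not. The genes that fell were the nuclear reader Ythdc1 (log2 -0.36 ± 0.09, adjusted p = 0.0058, but 0.088 without a variance trend) and Ythdc2 (log2 -0.41 ± 0.15, adjusted p = 0.033). The Ythdc2 call ended with arrays centred (0.063), under quantile normalization (0.11), without the filter (0.084) and without a variance trend (0.064). Trmo, a tRNA methyltransferase, had the largest decrease on the list, at 298 and 303 in HFD and 504 in ND (log2 -0.72 ± 0.18, adjusted p = 0.0050). The adenosine deaminase Adar, the cap methyltransferase Cmtr1 and Wdr6 also fell, at -0.45, -0.41 and -0.41. With no variance trend these 3 calls were lost (adjusted p = 0.058, 0.080 and 0.074). That of Cmtr1 was also lost under quantile normalization (0.078), with arrays centred (0.057), without the filter (0.088) and with probe sets averaged (0.15).

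**Figure D4:**
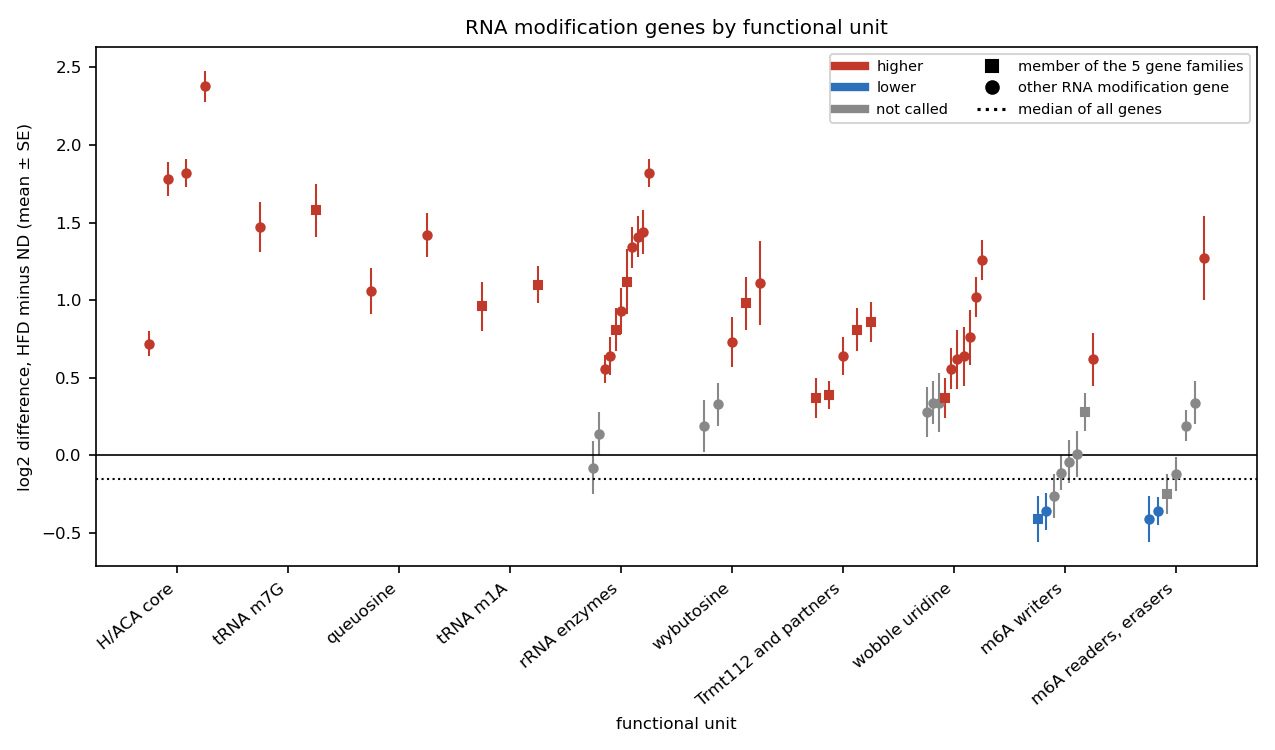
Log2 difference, HFD minus ND (mean ± SE), of RNA modification genes by functional unit, coloured by call, with members of the 5 families as squares and other genes as circles. All H/ACA core, tRNA m7G, queuosine and tRNA m1A genes and all listed Trmt112 genes are called higher, where 20.5% of all genes rose. The m6A writers lie between -0.41 and 0.62. The units were drawn up after values were seen. Not drawn are other pseudouridine synthases (4 of 6 called higher), genes for dihydrouridine (2 of 4) and adenosine deaminases (1 of 5 higher, 1 lower).

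For 31 enzyme genes more than 1 probe set passed the filter, which gave a check on single probe sets. In 25 of them all probe sets had the same sign, and in 6 (Mettl15, Mettl17, Mettl22, Mettl26, Nsun4 and Trmt13) they did not. Of the 17 called genes among the 31, 16 had probe sets of 1 sign, Mettl22 being the exception. The second probe set lay near 0 for Nsun5 and Trmt112, as given above. For Trmt10a, Trmt11 and Mettl2 the other probe sets gave 0.46 to 1.14.

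**Figure D5:**
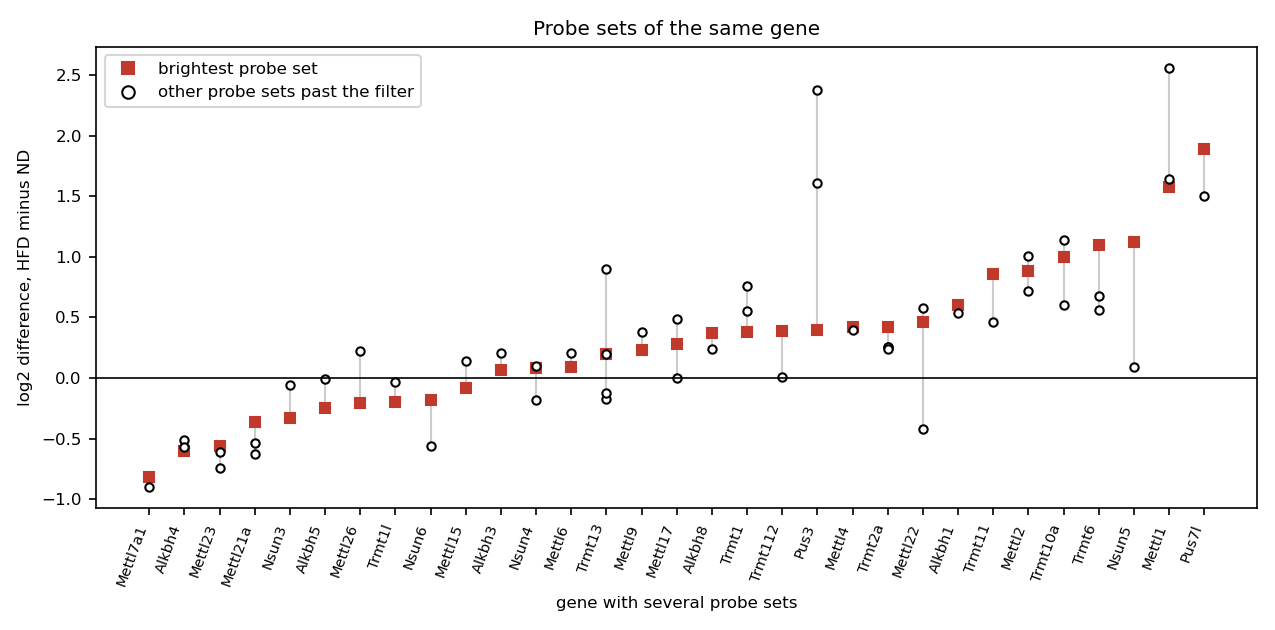
Log2 difference, HFD minus ND, of every probe set past the filter for the 31 enzyme genes with several, ordered by the brightest probe set (red squares), with the others as open circles. Pus3 and Mettl1 have dimmer probe sets above the brightest one, at up to 2.38 and 2.56, while Nsun5 and Trmt112 have one near 0.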

How the data were processed

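Per the submitters' processing notes, the deposited intensity values were made with GCOS, Affymetrix's array software; no algorithm or version is stated in the sources used. Each array's mean, trimmed by 2% at both ends, came to 500.0. Of 45101 probe sets, 64 controls were left out and 34945 with 1 gene symbol in the platform annotation were used (932 had several, 9160 none). Symbols were checked through Entrez identifiers against RefSeq GRCm38.p6 (34741 matched, 0 changed).

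The log2 scale added 17.65 to each intensity, which is the 25th percentile over the arrays. Genes entered with a mean over the arrays above 71.4, the median of all probe sets, leaving 10341 genes. HFD was compared with ND with limma 3.58.1 in R 4.3.3 (lmFit, eBayes with a trend, two-sided, Benjamini-Hochberg over all genes), with 1 residual and 11.69 prior degrees of freedom. The model was also run on simulated data with 200 of 10341 genes changed in HFD, far fewer than were called here (49.6%). It called 80% of changes of log2 1, 97% of those of log2 2 and 2 unchanged genes. All simulated arrays were drawn with the same spread, so the run cannot show whether the real ND array varies as the HFD arrays do. A count by size took genes that differed 1.5-fold or more from ND in each HFD array. Promoter windows came from RefSeq.

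All members of the 5 families were named by role, with values per array for called members and the brightest others. Of the remaining list, the 5 called genes with the largest change in each direction were named. Partner subunits, other genes of their units and some genes not called were named after their values were seen. Members, lists and motif were chosen with earlier results of these data known, and functional units were added, and Trmt10b moved to the cytosolic tRNA enzymes, after values were seen. Alternatives covered normalization, offset, filter, probe set merging, variance model and each HFD array left out. Tables were handled in Python 3.11.15 with pandas 2.3.3 and numpy 2.4.6, and figures drawn with matplotlib 3.10.9. The number of arrays limits the precision.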

Additional observations from a re-analysis of the deposited data

How the results depend on the processing

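Of the 29 called enzyme genes, 18 kept their call under every alternative in which they were tested, 16 of them higher and 2 lower (Alkbh4 and Trmt2b), and none changed sign. A further 9 genes gained a call under at least 1 alternative. Without the filter the enzyme genes called lower numbered 3 in place of 6, the genes called lower over all genes 1922 in place of 3015, and the enzyme genes' median above that of all genes was 0.28 in place of 0.43. This median was 0.40 under quantile normalization, 0.39 with probe sets averaged, and 0.42 to 0.46 without 1 HFD array. Without a variance trend 1 of the other modification genes was called lower in place of 7. The enzyme genes lower by 1.5-fold or more in both HFD arrays numbered 2, but 1 under quantile normalization or at a 75th percentile filter, 4 without the filter, and 2 to 5 without 1 HFD array (5 without HFD 1); over all genes that count was 1541, but 2339 without the filter, 837 at the 75th percentile filter and 2355 without HFD 1. At that stricter filter 53.7% of 41 enzyme genes rose and 14.6% fell, against 28.7% and 35.5% of 6550 genes. Signs reversed for uncalled genes: Mettl15 (0.04 under quantile normalization, 0.03 with probe sets averaged), Mettl25 (0.08 and, centred, 0.01), and with probe sets averaged Mettl26 (0.01) and Nsun4 (-0.00). The cause of these shifts was not tested. No paired analysis was possible because the groups share fewer than 2 replicate numbers. With 1 HFD array left out no residual degree of freedom remains, so calls were not computed there. Dim genes cannot be told from background without detection calls.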
